A study of Danio rerio with 12 samples.

Results

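Transcripts of 8 homeobox genes of the ventral and posterior embryo, *cdx4*, *cdx1a*, *eve1*, *vox*, *vent*, *ved*, *msx1a* and *msx1b*, were followed in zebrafish blastulae with and without ethanol. They are all probe sets whose symbol in the array annotation is one of these names, 9 of the 15617 on the Affymetrix Zebrafish Genome Array, for 8 of the 8793 genes named there. *vent* has 2 probe sets and each other gene has 1. Embryos of the ABTL strain were divided at 2 hpf, and a pool of 20 was kept in medium with 100 mM ethanol, the other pool of 20 in medium alone, until total RNA was taken at 4.5 hpf. The 12 arrays hold 6 ethanol and 6 control pools. Pools of the same number were taken to form 1 independent experiment, with 6 experiments on the arrays. This pairing is an assumption, since the sample titles give only treatment and number. The paper left out a further experiment, both pools, because the RNA integrity of its ethanol sample was low. An RNA pool of whole embryos holds every cell type of the blastula, so that fewer cells of a type and less RNA per cell cannot be told apart.

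Homeobox genes encode transcription factors that bind DNA through a homeodomain. Before gastrulation the ventral side of the zebrafish embryo is patterned by BMP ligands and by Wnt8 from the margin, and the dorsal side by the organizer, which secretes BMP antagonists. *vox*, *vent* and *ved* encode related repressors that keep organizer genes such as *gsc*, *chrd* and *dharma* off the ventral side. *eve1*, of the even-skipped family, and the caudal genes *cdx4* and *cdx1a* act on the ventral and posterior margin, where Cdx proteins later turn on posterior *hox* genes. *msx1a* and *msx1b* belong to the msh family, whose members are targets of BMP and later mark the border of the neural plate.

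The measured values are MAS5 signals, a background-corrected brightness per probe set with every array brought to the same overall brightness. Array medians ran from 98.6 to 106.6 with ethanol and from 91.6 to 101.8 in controls. Where the mean of either treatment reached 50, the probe set was tested on the log2 scale by limma, paired by experiment, 9767 in all. Calls needed a Benjamini-Hochberg adjusted p below 0.15, a raw p below 0.03 and a log2 fold change of 0.32 or more in size. With ethanol, 369 probe sets were called higher and 158 lower, which makes 70.0% of the calls higher, against 41.5% after quantile normalization and 33.3% after median centring. The blastula was recognisable from *pou5f3*, *nanog* and *sox3*, with mean signals of 18375.5, 15477 and 8359 in ethanol and 20019, 13410.5 and 9051 in control embryos.

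Of the 8 homeobox genes, *cdx4*, *eve1* and *msx1b* fell with ethanol, and none rose. The probe set of *cdx1a* lay under the signal minimum, so that 8 probe sets for 7 genes were tested. Of these, 3 were called lower, 0 higher, and 5 did not pass. Over all tested probe sets, 1.62% were called lower, 3.78% higher and 5.4% in either direction. The median log2 fold change was -0.32 over the 8 probe sets and 0.05 over all 9767. A lower signal in 6 of 6 experiments was seen for 4 of the 8, the called ones and *ved*, and for 3.84% of all tested probe sets. None of the 8 was higher in 6 of 6 experiments, as were 8.14% of all. None of the 9 probe sets had ethanol arrays that were all under the control arrays, or all above them, as did 0.154% and 0.44% of all tested probe sets. When experiment was modelled as a random effect with a single correlation for all probe sets, 1 of the 3 calls was left, that of *eve1*.

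**Figure D1:**
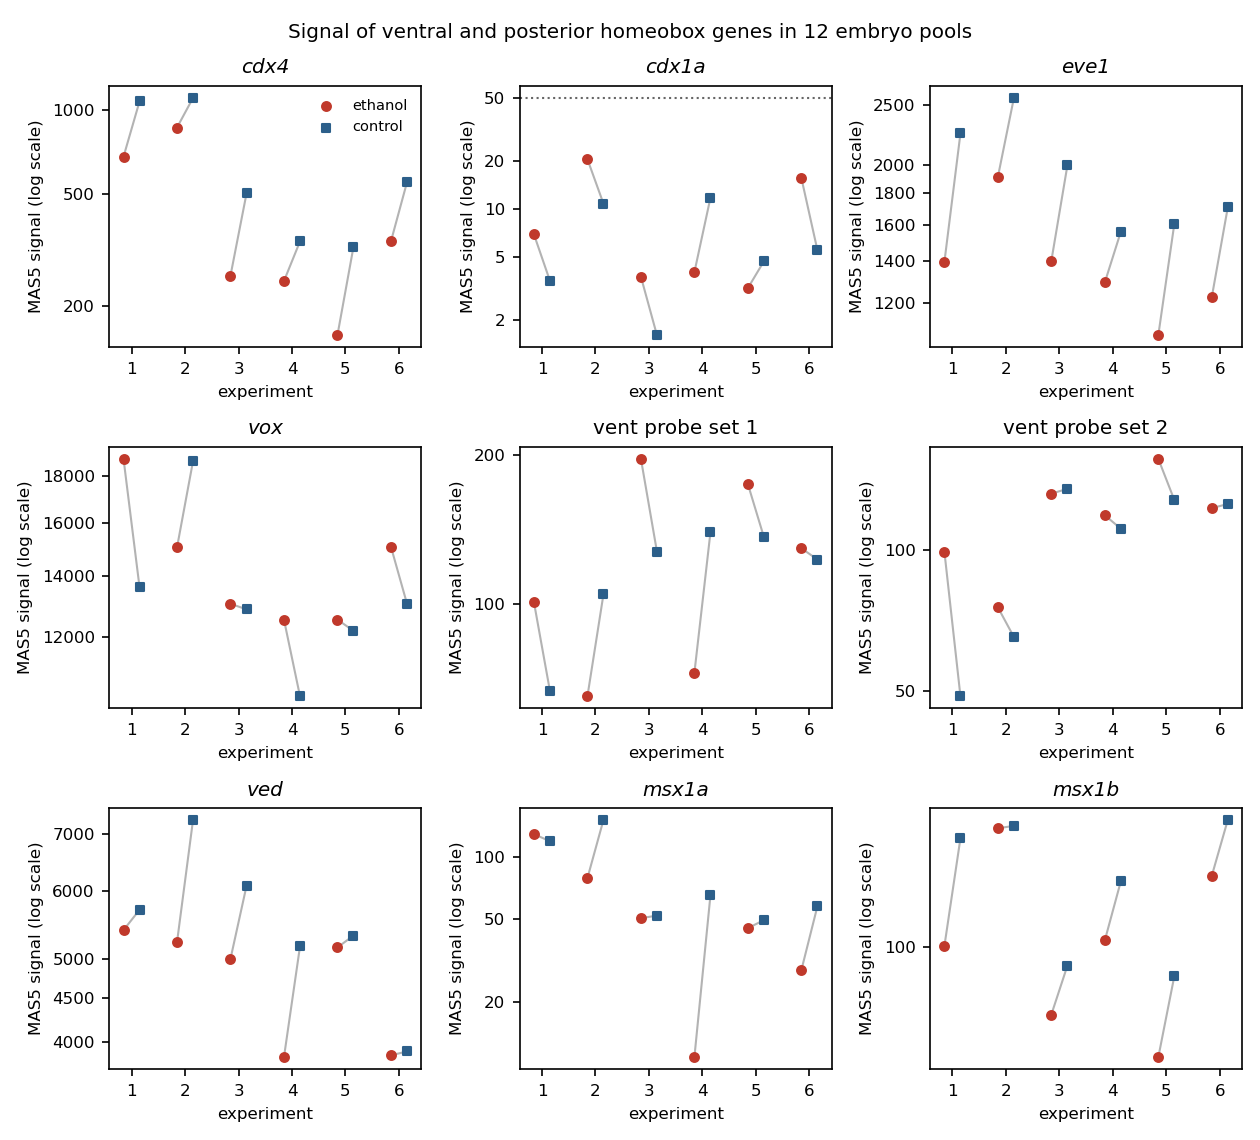
MAS5 signal (log scale) of the 9 probe sets in each experiment, with ethanol pools as circles on the left of each pair and control pools as squares on the right. The grey line joins the pools of an experiment, and the dotted line for *cdx1a* is the signal minimum of 50. For *cdx4*, *eve1*, *ved* and *msx1b* the ethanol pool was lower in all 6 experiments, while *vox* was lower in experiment 2 alone.

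*cdx4* encodes a caudal factor needed for the posterior body and for blood. Its signal had a lowest, median and highest value of 157, 298 and 865 in ethanol pools, against 324, 527 and 1104 in control pools. The ranges overlap widely, and 3 of the 6 ethanol pools were under the lowest control pool. Within experiments the order was the same each time, and the ethanol signal was 63.5%, 78.4%, 50.9%, 72.2%, 48.4% and 61.6% of the control signal in experiments 1 to 6. The means were 424 ± 282 in ethanol and 649 ± 352 in control pools (SD, n = 6 each). In the paired fit *cdx4* fell by 0.70 on the log2 scale (SE 0.11, 95% interval -0.96 to -0.43, adjusted p = 0.0665 from limma), a lower value than that of all but 1.08% of tested probe sets. By an exact two-sided permutation test that flips the signs of the 6 ratios, p was 0.03125, the lowest value possible. Any probe set with 6 ratios of the same sign reaches this value, which was not adjusted over the probe sets. The call was lost without experiment 3 (log2 fold change -0.64, adjusted p = 0.180 from limma) and with experiment as a random effect (adjusted p = 0.1995).

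The other caudal gene, *cdx1a*, gave signals near the bottom of the array's range. They were 3.18 to 20.6 in ethanol pools (median 5.46) and 1.61 to 11.8 in control pools (median 5.11), and all 12 arrays lay under the minimum of 50. The ethanol pool was higher in 4 experiments and lower in 2, with log2 ratios from -1.55 to 1.51, so no change was detectable for this gene at such signals. The *hox* genes, which Cdx factors regulate at later stages, were low as well. All 9 *hox* genes of the posterior list on the array lay under the minimum, with means of at most 31.2 in ethanol and 27.2 in control embryos.

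*eve1* had the most even response among the 8 genes. Its signal ran over 1065, 1346 and 1913 (lowest, median and highest) in ethanol pools and over 1563, 1853 and 2564 in control pools. Of the ethanol pools, 5 were under the lowest control pool, and only that of experiment 2 was not. The ethanol signal was 62.1%, 74.6%, 70.3%, 82.9%, 66.2% and 71.7% of the control signal in experiments 1 to 6, and the SD of its log2 ratio, 0.14, was the smallest of the 9 probe sets. The mean was 1383 ± 288 in ethanol and 1948 ± 398 in control embryos (SD, n = 6 each). *eve1* fell by 0.49 (log2, SE 0.09, 95% interval -0.70 to -0.29, adjusted p = 0.0780 from limma; exact two-sided sign-flip permutation p = 0.03125). The call was lost without experiment 1, 3 or 5, with adjusted p-values of 0.155, 0.188 and 0.171 from limma.

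*msx1b* fell as well. The lowest, median and highest signals were 58.1, 102 and 179.9 in ethanol pools, against 86.8, 155 and 188 in control pools, and 2 ethanol pools lay under the lowest control pool. The share of the control signal left was 58.8%, 98.8%, 78.6%, 74.7%, 67.0% and 75.9% in experiments 1 to 6, so that experiment 2 showed almost no difference. The limma estimate was -0.42 (log2, SE 0.11, 95% interval -0.67 to -0.17, adjusted p = 0.129), and exact permutation by sign flips gave p = 0.03125 (two-sided). This call did not withstand the loss of any single experiment, with adjusted p-values of 0.157 to 0.250 from limma and log2 fold changes of -0.50 to -0.35. It was also lost with experiment as a random effect (adjusted p = 0.240) and after median centring (log2 fold change -0.49, adjusted p = 0.153). On the log2(signal + 50) scale it was lost on the size of the change (log2 fold change -0.29, adjusted p = 0.120 from limma).

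The paralog *msx1a* had the widest spread between experiments of the 8 tested probe sets. Its signal was 10.8, 48.0 and 129 (lowest, median and highest) in ethanol pools and 49.6, 61.5 and 151 in control pools, under the minimum of 50 on 4 of the 12 arrays. The ethanol signal was 108%, 52.3%, 97.1%, 16.5%, 91.4% and 49.1% of the control signal in experiments 1 to 6. Experiments 1, 3 and 5 thus showed little difference, and experiment 4 a large one. The log2 fold change was -0.77 (SE 0.34, 95% interval -1.54 to 0.00, adjusted p = 0.275 from limma), -0.40 without experiment 4 and -0.34 on the log2(signal + 50) scale. The exact two-sided sign-flip permutation p was 0.09375.

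**Figure D2:**
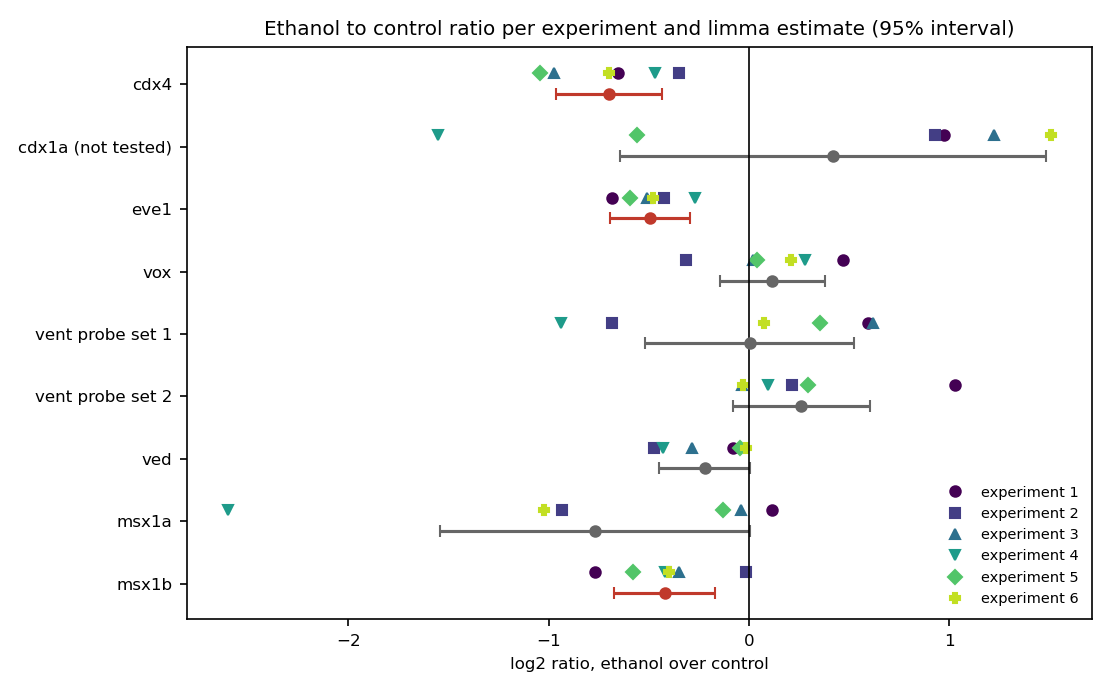
Log2 ratio of ethanol over control in each experiment (symbols, upper row of each gene) and the limma estimate with its 95% interval (circle and bar, lower row, red where called). *cdx4*, *eve1* and *msx1b* have intervals below 0, the ratios of *eve1* lie closest together, and those of *msx1a* run from -2.60 to 0.12. *cdx1a* was not tested and its bar comes from a fit of all probe sets.

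The 3 ventral repressor genes did not pass the test in either direction. *vox* signals were 12527, 14032 and 18789 (lowest, median and highest) in ethanol pools and 10326, 12949.6 and 18687 in control pools, with the ethanol pool higher in 5 of 6 experiments and lower in experiment 2. The log2 fold change of *vox* was 0.12 (SE 0.11, 95% interval -0.15 to 0.38, adjusted p = 0.610 from limma; exact two-sided sign-flip permutation p = 0.34375). At 95% confidence, a fall of *vox* as large as the estimates for *cdx4*, *eve1* or *msx1b* lies outside this interval.

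*ved* signals were 3838, 5080.3 and 5405 in ethanol pools and 3898, 5519 and 7275 in control pools, again as lowest, median and highest. *ved* was lower with ethanol in all 6 experiments, by little in experiments 1, 5 and 6 (94.7%, 96.8% and 99.0% of control) and by more in experiments 2, 3 and 4 (71.9%, 82.2% and 74.2%). The log2 fold change was -0.22 (SE 0.10, 95% interval -0.45 to 0.01, adjusted p = 0.284 from limma). Exact permutation by sign flips gave p = 0.03125 (two-sided, not adjusted), which restates that all 6 ratios had the same sign.

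*vent* was measured by 2 probe sets, which did not give the same ratios. On the first, signals were 65.4, 115 and 196 in ethanol pools and 66.9, 125 and 139.6 in control pools (lowest, median and highest). The ratio varied widely there, from -0.94 in experiment 4 to 0.62 in experiment 3, around a log2 fold change of 0.00 (SE 0.23, 95% interval -0.52 to 0.53, adjusted p = 0.995 from limma). On the second, signals were 75.5, 121 and 157 in ethanol pools and 48.7, 119 and 136 in control pools, and the log2 fold change was 0.26 (SE 0.15, 95% interval -0.08 to 0.60, adjusted p = 0.383 from limma), or 0.11 without experiment 1 (adjusted p = 0.627). In experiment 4, for example, the ethanol signal was 52.2% of control on the first probe set and 107% on the second. The interval of the first *vent* probe set includes falls of the size of *eve1* and *msx1b*.

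Relatives were compared within experiments, as the difference between their log2 ratios, for 5 pairs of genes, with *vent* taken from its first probe set. *vox* had the higher ratio than *ved* in 6 of 6 experiments, by 0.34 on average (SD 0.24, 6 experiments), with an exact permutation p of 0.03125 (two-sided sign flips) and an adjusted p of 0.156 over the 5 pairs. The ratio of *cdx4* was below that of *cdx1a* in 5 of 6 experiments. The mean difference was -1.12 (SD 1.26, 6 experiments, exact permutation p = 0.09375, adjusted p = 0.234), which rests on the low signals of *cdx1a*. The differences were 0.35 (SD 1.13) for *msx1b* minus *msx1a*, 0.11 (SD 0.64) for *vox* minus *vent* and 0.23 (SD 0.54) for *vent* minus *ved*, with exact two-sided sign-flip permutation p-values of 0.53125, 0.71875 and 0.375 (adjusted p = 0.664, 0.719 and 0.625). With the 2 *vent* probe sets averaged, *vent* minus *ved* was 0.35, with an exact permutation p of 0.03125 and an adjusted p of 0.0781. In that setting *vox* minus *ved* had the same exact and adjusted p. On the log2(signal + 50) scale *cdx4* minus *cdx1a* was -0.68 and *vox* minus *ved* 0.34. Both had an exact sign-flip permutation p of 0.03125 and an adjusted p of 0.0781. Neither setting brought a pair under an adjusted p of 0.05. With 6 experiments the smallest possible p is 0.03125, so that 1 such pair among 5 cannot pass an adjusted p of 0.05.

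The level of *cdx4* also varied between experiments, in both treatments. Control pools of experiments 1 and 2 had *cdx4* signals of 1073 and 1104, and those of experiments 3 to 6 had 503, 340, 324 and 551. The ethanol pools followed the same order of experiments, with 681 and 865 in the first pair and 256, 245, 157 and 339 in the rest. The range of control pools was 1.77 on the log2 scale for *cdx4*, against the ethanol effect of -0.70, and its control SD, 0.77, was above that of 92.4% of tested probe sets. *eve1* (2247 and 2564 against 1563 to 1996) and *msx1a* (119 and 151 against 49.6 to 65.3) were also higher in the control pools of experiments 1 and 2 than in those of 3 to 6, as was *vox* by less (13586 and 18687 against 10326 to 13044). Both *vent* probe sets went the other way, with 66.9 and 105 on the first and 48.7 and 65.2 on the second in the control pools of experiments 1 and 2, against 123 to 139.6 and 111 to 136 in the others. *msx1b* had no such division, since the control pool of experiment 6, 188, was the highest. Nor had *ved*, whose control pool of experiment 3, at 6089, was above that of experiment 1, at 5711. Without the experiment term limma called 0 of the 8 tested probe sets (1 had a raw p below 0.05), and without experiments 1 and 2 it also called 0 (3 had a raw p below 0.05).

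**Figure D3:**
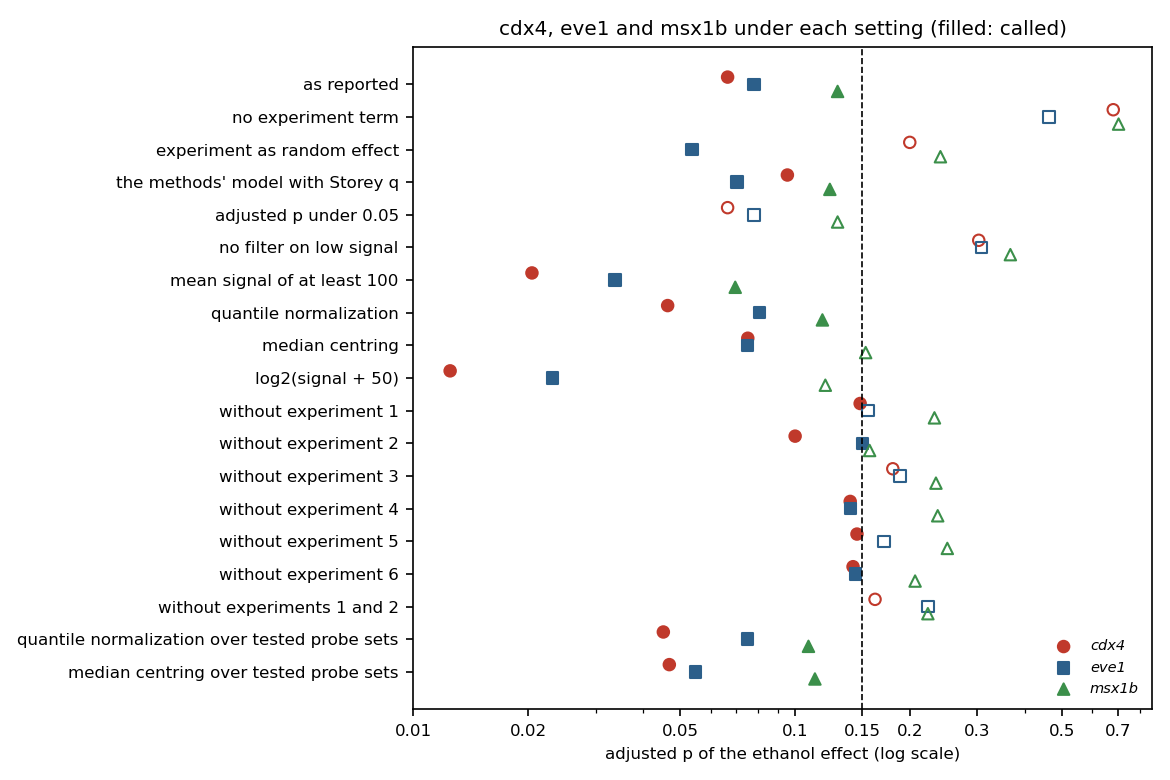
Adjusted p (log scale) of the ethanol effect on *cdx4*, *eve1* and *msx1b* in the reported fit and under each alternative except averaged probe sets, with filled symbols where the probe set was called. The dashed line marks 0.15. All 3 lie right of it without the experiment term, without a filter on low signal, without experiment 3 and without experiments 1 and 2.

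Genes of the posterior and the margin, among which *cdx4* and *eve1* act, were called in 1 direction only. Of 35 such genes on the array 22 were tested, and 6 fell, 0 rose and 16 did not pass. That is 27.3% called lower, against 1.62% of all tested probe sets. Below 0 were 21 of the 22 fold changes, with a median of -0.19 (log2), against 0.05 over all tested probe sets. This list, like the others, was chosen with earlier results of these data known. The clock gene *her7* had the largest fall, with signals of 379 ± 230 in ethanol and 1043 ± 454 in control embryos (SD, n = 6 each) and a limma estimate of -1.55 (log2, SE 0.16, adjusted p = 0.0221). It was followed by *msgn1*, a factor of presomitic mesoderm (-1.24), the retinoic acid synthesis gene *aldh1a2* (-1.09) and *her1*, another clock gene (-1.08). The remaining 2 were the Wnt-responsive factor gene *sp5l* (-0.87) and the ligand gene *wnt5b* (-0.77), named after their values had been seen. All 6 were lower in 6 of 6 experiments. Without experiments 1 or 3 the list held 3 and 2 called genes. Only *her7* and *msgn1* kept their calls whichever single experiment was left out. The *sp5l* call was lost without experiment 3, and that of *aldh1a2* without experiment 1, 2 or 3. The call of *her1* was kept only without experiment 2. That of *wnt5b*, with mean signals of 61.0 in ethanol and 97.8 in control embryos, was lost each time (limma adjusted p = 0.163 to 0.243).

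The genes that the ventral repressors hold down were among 16 tested organizer genes, of which 2 fell, 0 rose and 14 did not pass, at a median of -0.18. This was 12.5% called lower, against 1.62% of all tested probe sets. The limma estimates were -0.77 (log2, SE 0.18, adjusted p = 0.108) for *otx2a*, a head homeobox gene, and -0.39 (SE 0.10, adjusted p = 0.126) for *foxa2*, a forkhead gene. *otx2a* had low signals, with means of 60.7 in ethanol and 106 in control embryos. *gsc*, *chrd* and *dharma*, picked for their role, had fold changes of -0.14, -0.21 and -0.15 (log2) and adjusted p-values of 0.422, 0.273 and 0.486 from limma. Leaving out any single experiment reduced the 2 calls of this list to 1 or 0, and median centring over the tested probe sets gave 5. With experiment as a random effect the *foxa2* call was lost (adjusted p = 0.171 from limma) and that of *otx2a* was kept (adjusted p = 0.0524). The list then held 3 calls.

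Upstream, in the BMP pathway, 1 of 25 tested genes rose, 0 fell and 24 did not pass, at a median of -0.01. The 1 was *szl*, which encodes a secreted inhibitor of the proteases that cleave Chordin, with signals of 699.7 ± 324 in ethanol and 499 ± 343 in control embryos (SD, n = 6 each). It was higher in 6 of 6 experiments (log2 fold change 0.58, SE 0.11, adjusted p = 0.0861 from limma), a call that was lost without experiment 1, 3, 4 or 5 (adjusted p = 0.159, 0.191, 0.184 and 0.172 from limma) and with experiment as a random effect (adjusted p = 0.168). Of 10 other ventral regulators tested, *klf2a*, a Krüppel-like factor gene, rose by 0.55 (log2, SE 0.11, adjusted p = 0.0940 from limma), and 9 did not pass, at a median of 0.09. The *klf2a* call was lost without experiment 1, 2, 3, 4 or 5 (adjusted p = 0.175, 0.184, 0.202, 0.184 and 0.171 from limma). Among all tested probe sets, 3.78% were called higher and 1.62% lower. Of 13 relatives of the 8 genes on the array, in the *evx*, *msx* and *dlx* families, 12 lay under the signal minimum, and *msx3* did not pass (-0.02, adjusted p = 0.982 from limma).

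**Figure D4:**
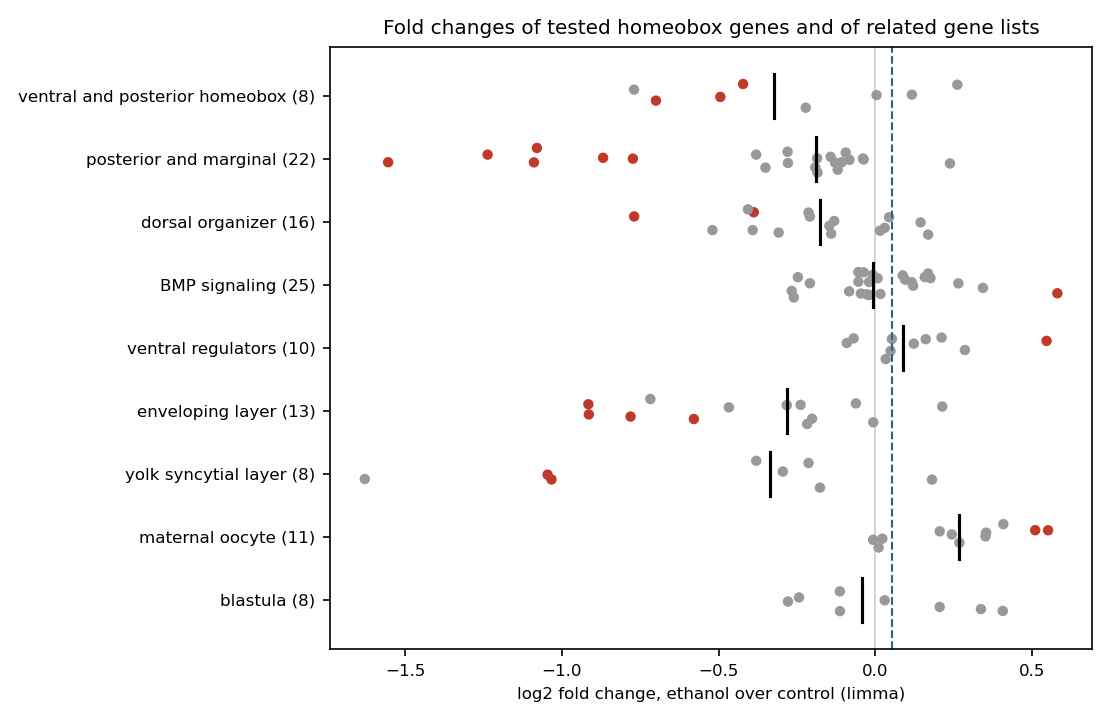
Log2 fold change of the tested probe sets of the 8 homeobox genes (top row) and of the tested genes of each list, with called ones in red, the median of each row as a black bar, and the number tested in brackets. The dashed line is the median of all tested probe sets, 0.05. Called posterior genes lie at -0.77 or below, and the called genes of BMP signaling and ventral regulators lie above 0.

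Some markers of the enveloping layer and of the yolk syncytial layer also fell with ethanol, while some maternal oocyte transcripts rose. Their part in the falls of *cdx4*, *eve1* and *msx1b* was not tested. For comparison, 1.62% of all tested probe sets were called lower and 3.78% higher. Of 13 enveloping layer markers, all tested, 4 fell and 0 rose (median -0.28). The summed signal of the 13 was 38260 to 50483 in ethanol pools against 41468 to 59687 in control pools. Within experiments this sum was lower with ethanol in 6 of 6. The 4 were the keratin gene *krt17* (log2 -0.91), the epithelial factor gene *elf3* (-0.92) and the annexin genes *anxa1c* (-0.78) and *anxa1a* (-0.58). These 4 were named after their values had been seen. Of the 13 estimates, 12 were below 0. The 12 include *cldnf* and *anxa1b*, also named after their values had been seen, which passed the signal minimum only through their control means. Those were 62.2 and 64.7, against 43.1 and 42.2 in ethanol pools, a selection that favours an estimate below 0. Signals of *elf3* were low, with means of 51.3 in ethanol and 95.5 in control pools. Another keratin gene of the layer, *krt4*, was at -0.06 (log2, limma adjusted p = 0.736). Leaving out 1 experiment gave 2 or 3 calls, with *krt17* and *elf3* among them each time. The *anxa1c* call was lost each time (limma adjusted p = 0.171 to 0.213) and with experiment as a random effect (adjusted p = 0.195). That of *anxa1a* was kept only without experiment 4 or 5. Of 8 tested yolk syncytial layer markers 2 fell and 0 rose (median -0.34), 3 more were under the minimum, and the summed signal was 14693 to 18759 in ethanol and 15313 to 24173 in control pools. It was also lower with ethanol in 6 of 6 experiments. Most of this sum is the apolipoprotein gene *apoeb*, named after its values had been seen, with means of 13776 in ethanol and 16073 in control pools. *apoeb* was itself lower in 6 of 6 experiments and was not called (log2 -0.21, limma adjusted p = 0.245). The 2 called markers were the apolipoprotein gene *apoa1a* (-1.03 on the log2 scale) and the transferrin gene *tfa* (-1.05), also named after their values had been seen. Mean signals of *apoa1a* were 66.6 in ethanol and 138 in control pools. *mxtx2*, a homeobox gene that specifies this layer, was at 0.18 (log2, limma adjusted p = 0.373), the only estimate of the 8 above 0. The lowest estimate, that of *apoa2* (-1.63, not called), was named after its value had been seen. This gene passed the signal minimum only through its control mean, 55.1 against 30.1 in ethanol pools, which favours an estimate below 0. Without experiment 3 neither *apoa1a* nor *tfa* was called, and without experiment 1, 2, 4 or 6 only *tfa* was. Of 11 maternal oocyte transcripts 2 rose and 0 fell (median 0.27), with a summed signal of 24604 to 36131 in ethanol and 21608 to 32568 in control pools, higher with ethanol in 6 of 6 experiments. Among them *btg4*, an adaptor for the removal of maternal mRNA, rose by 0.55 (SE 0.13, adjusted p = 0.108 from limma), as did the kinase gene *mos*, by 0.51, named after its value had been seen, and *zar1* was at 0.01 (limma adjusted p = 0.975). The *btg4* call was lost without any 1 of the 6 experiments (limma adjusted p = 0.153 to 0.215), and that of *mos* was kept only without experiment 4. Of the 8 blastula markers limma called 0 (3 had a raw p below 0.05), and their summed signal was lower with ethanol in 5 of 6 experiments.

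The genes most like the 3 called ones over the 12 arrays were found by the root mean square difference between log2 signals, each centred on its own mean, over 7640 named probe sets. This difference spans both treatments and so includes the ethanol effect, and calls among the nearest genes are not a separate result. Nearest to *cdx4* were *uox*, a urate oxidase gene (difference 0.25), the annexin gene *anxa1c* (0.28), the Notch ligand gene *dldh*, formerly *dld* (0.29), *gngt2a* (0.32) and *etnk1*, an ethanolamine kinase gene (0.35), against a median difference of 0.92 for all. The first 4 of these were called lower with ethanol, and *etnk1* was not (-0.18, adjusted p = 0.509 from limma). Nearest to *eve1* were *ak3*, an adenylate kinase gene (0.14), *pttg1ipa* (0.16), *hes6* (0.16), the prefoldin gene *pfdn4* (0.17) and the cytochrome oxidase gene *cox7c* (0.17), against a median of 0.49, and *pttg1ipa* and *hes6* were called lower. Nearest to *msx1b* were *lrig1* (0.25), *papss2b* (0.25), *rasl11b* (0.27), *ets2* (0.27) and *s100v2* (0.29), against a median of 0.63, and none of these was called. Among the 8 genes themselves, the nearest to *cdx4* was *msx1b* (0.56) and the nearest to *msx1b* was *eve1* (0.42), while *eve1* lay nearer to the uncalled *ved* (0.27) and *vox* (0.37) than to *msx1b*. The second *vent* probe set lay at 1.29 from *cdx4*, farther than 93.9% of the named probe sets.

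In the RefSeq annotation of the GRCz12tu assembly, *vent* and *vox* are immediate neighbours. On the first *vent* probe set their log2 ratios had the same sign in experiments 1, 2, 3, 5 and 6. They differed in sign in experiment 4, where *vox* had 0.28 and *vent* -0.94. On the second *vent* probe set the signs were the same in experiments 1, 4 and 5 and differed in experiments 2, 3 and 6. *eve1* lies at the end of a *hox* cluster, with *hoxb13a*, not analysed here, and then *hoxb10a*, under the signal minimum, on one side, and on its other side the ATP synthase gene *atp5mc1* was at -0.20 (log2, limma adjusted p = 0.353). Beside *cdx4*, the receptor gene *kdrl* lay under the minimum and *lnx2b*, 2 genes away, was at 0.29 (log2, limma adjusted p = 0.183). Also tested were *h2az2b* (-0.19) and *polm* (0.11) beside *ved*, and *taf5* (0.12), 2 genes from *msx1b*. No other gene within 2 places was tested outside the 8 genes, so *cdx1a* and *msx1a* had no tested neighbour. None of these few tested neighbours was called. Among all tested probe sets 5.4% were called, so no call is likely among so few.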

How the data were processed

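Total RNA of 6 ethanol and 6 control pools was hybridized to 1-colour Affymetrix arrays. The intensity values deposited by the authors are linear MAS5 signals from Affymetrix Expression Console (version not given in the sources used here), scaled per array. Each array's 2% trimmed mean is 500.1, which is not the target the methods state. The signal minimum replaces the study's filter on detection calls. By the platform annotation, with symbols brought up to date, 10802 of 15617 probe sets have 1 symbol, 135 several and 4680 none. No probe set was named from several. Left out were 115 control probe sets and 5735 under the minimum. The fits of log2 signals used limma 3.58.1 (R 4.3.3), with p-values adjusted by Benjamini-Hochberg over 9767 probe sets. The study's own threshold was a Storey q. Same-numbered pools were paired, since the methods name the independent experiment as a model term. Their deviations correlated at 0.373 to 0.669 across probe sets, and the control pools of experiments 2, 5 and 6 correlated best with the ethanol pool of their own number, those of 1, 3 and 4 with another. Fits were tested on simulated data. Tables, sign-flip tests and plots were made in Python 3.11.15 (scipy 1.17.1, matplotlib 3.10.9, pandas 2.3.3, numpy 2.4.6).

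The genes and lists were chosen with earlier results of these data known. Listed genes stand for their tested probe set of highest mean signal. Named were all 8 genes, up to 4 called genes of each list by size, the 5 genes most like each called member, and the defining markers *pou5f3*, *nanog*, *sox3*, *krt4*, *mxtx2*, *btg4* and *zar1*. Other names are given as chosen after their values were seen, for their role or for their place beside a member. Alternatives were the fit without experiment, with experiment as a random effect, the methods' model with Storey q, an adjusted p under 0.05, no signal minimum or one of 100, quantile normalization, median centring, log2(signal + 50), averaged probe sets and each experiment left out. Added after seeing the data were the fit without experiments 1 and 2 and both normalizations over tested probe sets. The number of arrays limits the precision. No sequence was used.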

Additional observations from a re-analysis of the deposited data

Results flagged for a closer look

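The second *vent* probe set had a log2 ratio of ethanol to control of 1.03 in experiment 1, apart from the other experiments, the nearest of which had 0.29. The gap was 0.692 of the whole range over the 6 experiments, past the limit for a single value far from the others. This was the only such value among 27 groups of 6 examined (the ethanol signals, the control signals and the ratios of the 9 probe sets). By chance about 1 in 20 groups passes the limit, so 1 among 27 is not unusual. The groups are also not independent, since the ratios come from the signals. The ethanol signal was 99.4 and the control signal 48.7 in that experiment, and this control signal was the lowest of the 12 arrays and under the signal minimum. Without experiment 1 the log2 fold change of the second probe set was 0.11, against 0.26 with it. On the first *vent* probe set the ratio of the same experiment was 0.59.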

How the results depend on the processing

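Without the replicate block that pairs pools of an experiment, 1 probe set was called in all, against 527, and 0 of the 8 homeobox probe sets (1 at an unadjusted p under 0.05), of the BMP, organizer and posterior genes and of the ventral regulators. The counts of calls by limma for all probe sets, the 8 homeobox probe sets, BMP, organizer, posterior and ventral genes were 527, 3, 1, 2, 6 and 1 as reported, 33, 0, 0, 0, 3 and 0 at an adjusted p under 0.05, 2, 0, 0, 0, 0 and 0 without a signal minimum, and 14, 0, 0, 0, 1 and 0 without experiments 1 and 2. Leaving out 1 experiment gave 21 to 143, 0 to 2, 0 to 1, 0 to 1, 2 to 4 and 0 to 1 in this order. The total was 824 at a minimum of 100, 248 after quantile normalization (327 over tested probe sets) and 180 after median centring. Experiment as a random effect gave 1 homeobox and 0 BMP genes. The BMP list held 2 calls with the methods' model, at a minimum of 100 and after median centring over tested probe sets, which gave 5 organizer genes. Median centring left 1 organizer gene and 0 ventral regulators. No other alternative moved these counts by over 1.5 times.

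The log2 fold change of the first *vent* probe set, 0.00, turned to -0.025 and -0.065 after quantile normalization and median centring (-0.051 and -0.10 over tested probe sets), and was -0.12 to 0.19 without 1 experiment. The difference *vox* minus *vent* turned to -0.016 with averaged probe sets and was -0.11 to 0.26 without 1 experiment, and *msx1b* minus *msx1a* was -0.018 to 0.59. All other tested probe sets of the 8 genes kept their direction in each alternative. The cause of these changes was not tested.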
